A study of Mus musculus with 127 samples.

Results

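The 3 large olfactory receptor clusters of the mouse genome were followed through 10 single nuclei cut into serial slices. They were chosen by position on mm10: chr2:85000001-90500000, chr7:102000001-109000000 and chr9:37500001-40500000. These stretches hold 1550 of the genome's 10 kb windows, 550 on chromosome 2, 700 on chromosome 7 and 300 on chromosome 9. In the 20 files of positions, 2 for each cell, cluster windows were located 7122 times among 1222168 locations in all (0.583%). Of these locations, 2291 belonged to the chromosome 2 cluster, 3299 to the chromosome 7 cluster and 1532 to the chromosome 9 cluster.

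The nuclei came from the mouse embryonic stem cell line F123, labelled as strain CAST x 129, without treatment, grown with LIF and passaged without feeder cells before use. In the assay, sequential genome architecture mapping, a nucleus is cut into consecutive thin slices and the DNA of each slice is amplified and sequenced, which gives a stretch of genome a position along the cutting axis. Batch B16F held 4 cells (Cell17 to Cell20) and batch B18F held 6 (Cell25 to Cell28, Cell38 and Cell39), with 7 to 23 slices a cell. The slices of a nucleus are no replicates, so the cell was the unit of every test. The identity of the cells could not be checked against marker genes, since DNA positions carry no expression.

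Olfactory receptors are the odorant-sensing membrane proteins of the nose, and their genes form the largest gene family of the mouse. Each sensory neuron is known to express one receptor allele chosen from the whole family, while the remaining genes stay silent in heterochromatin, and in those neurons receptor clusters of different chromosomes gather in shared compartments. In embryonic stem cells the family is silent. The clusters lie in gene-poor surroundings rich in repeats, and neighbouring genes are often recent duplicates of each other, which makes short reads hard to place on a single copy.

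By the RefSeq annotation (GRCm38.p6), the 3 clusters hold 510 of the 1110 protein-coding genes with an Olfr symbol (45.9%). The chromosome 2 cluster runs from Olfr987 to Olfr1274, with 222 receptor genes, 71 receptor pseudogenes and 9 other protein-coding genes. The chromosome 7 cluster runs from Olfr543 to Olfr519, with 193 receptor genes, 45 receptor pseudogenes and 71 other protein-coding genes. Among the latter are the 5 beta-globin (Hbb) genes, which encode the oxygen-carrying chains of red blood cells, and 13 Trim genes, a family that includes antiviral ubiquitin ligases. The chromosome 9 cluster runs from Olfr160 to Olfr986, with 95 receptor genes, 31 receptor pseudogenes and 14 other protein-coding genes. A receptor gene is short, with a median length of 945 bases on chromosomes 2 and 9 and 954 on chromosome 7, so it usually fills a small part of a 10 kb window.

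Around their annotated starts, receptor genes differ from other genes in base composition. The annotated genes are short, so a start may be that of the coding sequence rather than of transcription, which was not checked. The lines below give the 150 bases before the annotated start, from RefSeq on GRCm38.p6, for the receptor genes with a promoter entry located most and least often in each cluster, and for the embedded adult globin gene Hbb-bs. Each is read 5′ to 3′ on the strand of its gene, and capitals mark CG pairs, the main sites of DNA methylation.

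Olfr1154 (chr2:87903675-87903824, minus strand): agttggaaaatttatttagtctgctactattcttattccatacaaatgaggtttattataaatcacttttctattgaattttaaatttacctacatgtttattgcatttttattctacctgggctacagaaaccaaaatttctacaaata
Olfr1048 (chr2:86236834-86236983, minus strand): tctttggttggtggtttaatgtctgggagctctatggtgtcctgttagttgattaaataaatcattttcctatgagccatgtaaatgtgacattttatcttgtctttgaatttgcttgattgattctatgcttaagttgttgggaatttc
Olfr549 (chr7:102554136-102554285, plus strand): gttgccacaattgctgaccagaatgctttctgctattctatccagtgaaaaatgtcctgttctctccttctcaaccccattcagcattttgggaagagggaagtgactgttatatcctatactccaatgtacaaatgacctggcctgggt
Olfr577 (chr7:102973991-102974140, minus strand): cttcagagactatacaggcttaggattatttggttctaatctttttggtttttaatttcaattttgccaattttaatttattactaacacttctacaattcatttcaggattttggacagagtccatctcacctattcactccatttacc
Olfr250 (chr9:38367398-38367547, plus strand): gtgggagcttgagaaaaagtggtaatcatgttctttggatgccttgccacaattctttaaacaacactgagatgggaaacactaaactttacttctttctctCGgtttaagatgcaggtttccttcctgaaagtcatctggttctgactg
Olfr26 (chr9:38854910-38855059, plus strand): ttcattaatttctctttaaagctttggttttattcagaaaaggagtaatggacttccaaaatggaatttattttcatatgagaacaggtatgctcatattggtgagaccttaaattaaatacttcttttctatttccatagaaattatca
Hbb-bs (chr7:103827929-103828078, minus strand): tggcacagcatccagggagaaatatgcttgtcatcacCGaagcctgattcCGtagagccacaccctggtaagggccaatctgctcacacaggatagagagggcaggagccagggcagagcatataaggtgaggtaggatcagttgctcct

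Of these 6 receptor stretches, Olfr250 alone holds a CG pair, and Hbb-bs holds 2. GC content of the stretches shown is 25.3% for Olfr1154, 34% for Olfr1048, 44% for Olfr549, 31.3% for Olfr577, 40.7% for Olfr250 and 27.3% for Olfr26, against 54% for Hbb-bs. Promoter entries, which also cover the first bases of the gene, matched 186 of 222 receptor genes in the chromosome 2 cluster, 170 of 193 on chromosome 7 and 79 of 95 on chromosome 9. Their median GC content was 32%, 36.7% and 35.3%, where the other protein-coding genes of the same chromosomes had 59%, 55.3% and 58.7%. No CG pair was present in 36%, 37.1% and 30.4% of the receptor entries, compared with 1.23%, 5.87% and 2.52% of the other entries. Across genes of a cluster, promoter GC content and how often a gene's windows were located had Spearman correlations of -0.03, 0.04 and 0.22, given as a description because neighbouring genes share windows and slices.

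Receptor clusters as wholes were located about as often as other stretches of their chromosomes. Coverage is the percentage of a region's windows that had a position, averaged over the 2 files of a cell. The chromosome 2 cluster had 20.8% ± 7.48 of its windows located (SD, n = 10), from 8.27% in Cell39 through a median of 19% to 35% in Cell28. The chromosome 7 cluster had 23.6% ± 14.9, from 8.14% in Cell39 through a median of 18.1% to 51.7% in Cell26. The chromosome 9 cluster had 25.5% ± 15, from 9.33% in Cell39 through a median of 22.3% to 52.2% in Cell25. Cells therefore differed several times over in how much of a cluster they gave, and the same cell was lowest for every cluster.

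Each cluster was set against regions of its own length laid end to end along its chromosome, 30 on chromosome 2, 19 on chromosome 7 and 39 on chromosome 9. Coverage relative to the mean of these regions was 0.942 ± 0.167 for the chromosome 2 cluster (exact sign-flip p = 0.299, adjusted p = 0.644), 0.987 ± 0.332 for the chromosome 7 cluster (exact sign-flip p = 0.910, adjusted p = 0.998) and 1.06 ± 0.31 for the chromosome 9 cluster (exact sign-flip p = 0.594, adjusted p = 0.974). The p-values are two-sided permutation tests over cells that flip the sign of each cell's deviation from 1, and the adjustment covers all 91 regions. None of the 3 clusters was called at an unadjusted p under 0.05, where regions of the same kind were called in 12.9% of cases on chromosome 2, 15% on chromosome 7 and 17.5% on chromosome 9. With windows between slice positions left out, the chromosome 2 cluster was 16.4% below its comparison regions with an exact sign-flip p = 0.0215.

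Single nuclei lay on both sides of this average. In Cell26, 51.7% of the chromosome 7 cluster was located against 30% of its comparison regions, a ratio of 1.72, with 17 of 19 regions below it. In Cell38 the ratio for the same cluster was 0.616, below all 19 comparison regions, and in Cell27 it was 1.16, above all 19. Cell25 located 52.2% of the chromosome 9 cluster and 26.3% of the chromosome 2 cluster, at ratios of 1.41 and 0.685, both within the range of the comparison regions. Of the 30 values, 2 lay outside that range, both on chromosome 7. By construction, any region of a chromosome is on average the highest or lowest in 6.45% of cells on chromosome 2, 10% on chromosome 7 and 5% on chromosome 9.

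**Figure D1:**
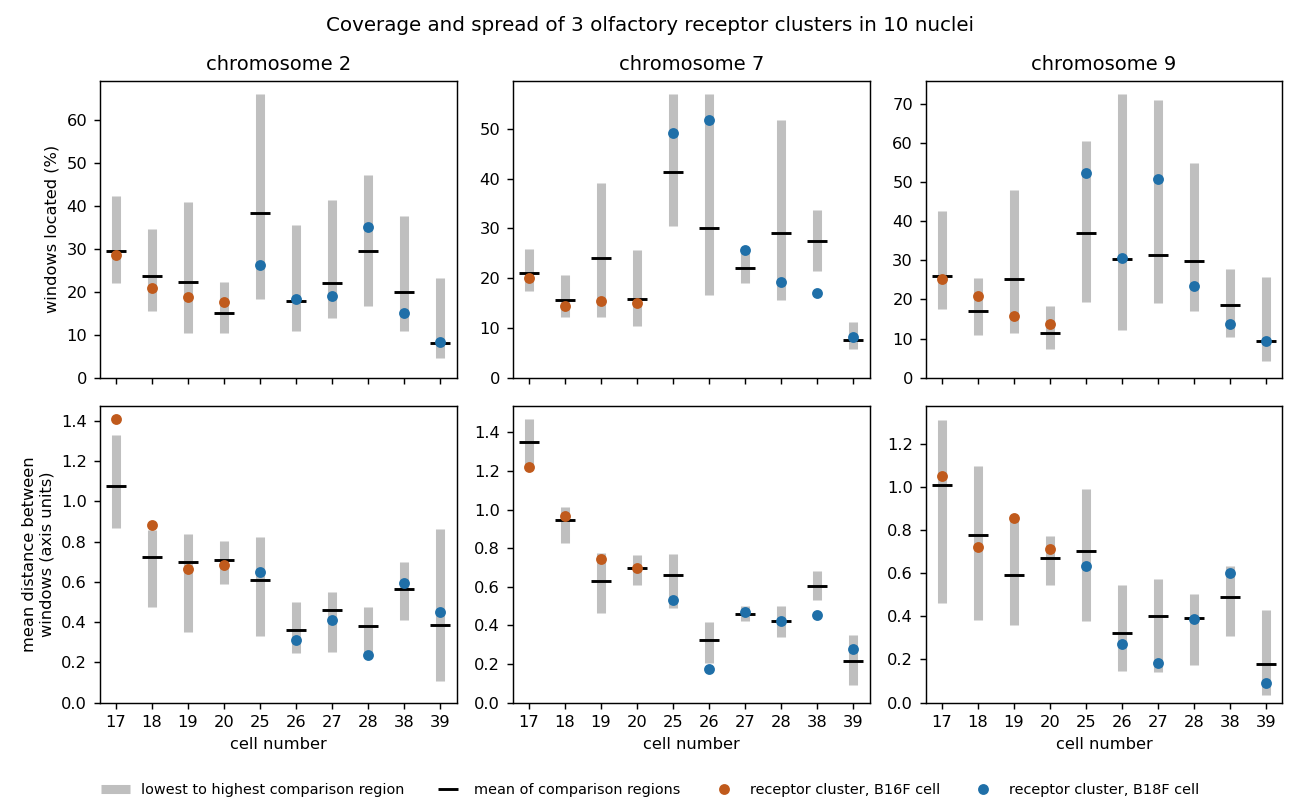
Windows located (top, percent of the region) and mean axis distance between windows of a region (bottom, axis units) for each cell and cluster. Points are the clusters, coloured by batch, black dashes the mean of comparison regions and grey bars their lowest to highest region; most points lie within the bars, and Cell26 lies below its bar for the spread of the chromosome 7 cluster.

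Within the clusters, windows over receptor genes were located less often than the windows between them. A receptor window is a 10 kb window that overlaps a protein-coding receptor gene. In the chromosome 2 cluster, 16.2% ± 6.92 of the 244 receptor windows were located (SD, n = 10; lowest 6.35%, median 13.8%, highest 30.3%) and 24.5% ± 8.17 of the 306 other windows. The ratio was 0.650 ± 0.10 and lay below 1 in 10 of 10 cells, from 0.493 in Cell27 to 0.800 in Cell18. The exact sign-flip p was 0.00195, which is the lowest possible with 10 cells, and 0.0156 after adjustment over the 16 designed comparisons. For scale, windows of other protein-coding genes were called lower in 37.6% of comparison regions. In the chromosome 7 cluster, 20.7% ± 15.3 of the 206 receptor windows were located (lowest 5.34%, median 15.8%, highest 49.3%) against 24.8% ± 14.7 of the 494 other windows. That ratio was 0.786 ± 0.121, again below 1 in every one of 10 cells, from 0.573 in Cell39 to 0.969 in Cell25 (exact sign-flip p = 0.00195, adjusted p = 0.0156).

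The chromosome 9 cluster had the same direction with a wider spread. Its 108 receptor windows were located at 21.7% ± 17 (lowest 6.48%, median 15.7%, highest 56.9%) and its 192 other windows at 27.7% ± 14.5. The ratio was 0.718 ± 0.239, below 1 in 9 of 10 cells, from 0.383 in Cell28 to 1.21 in Cell27 (exact sign-flip p = 0.00977, adjusted p = 0.0521). Cell27 was the exception, with 56.9% of receptor windows and 47.1% of the others located. Within batches the ratios were 0.688 in B16F and 0.625 in B18F for chromosome 2, 0.749 and 0.811 for chromosome 7, and 0.703 and 0.729 for chromosome 9. With 4 cells the smallest possible p is 0.125, which each of the B16F values reached. In B18F the exact sign-flip p was 0.0312 on chromosomes 2 and 7, the smallest 6 cells can give, but 0.125 on chromosome 9.

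**Figure D2:**
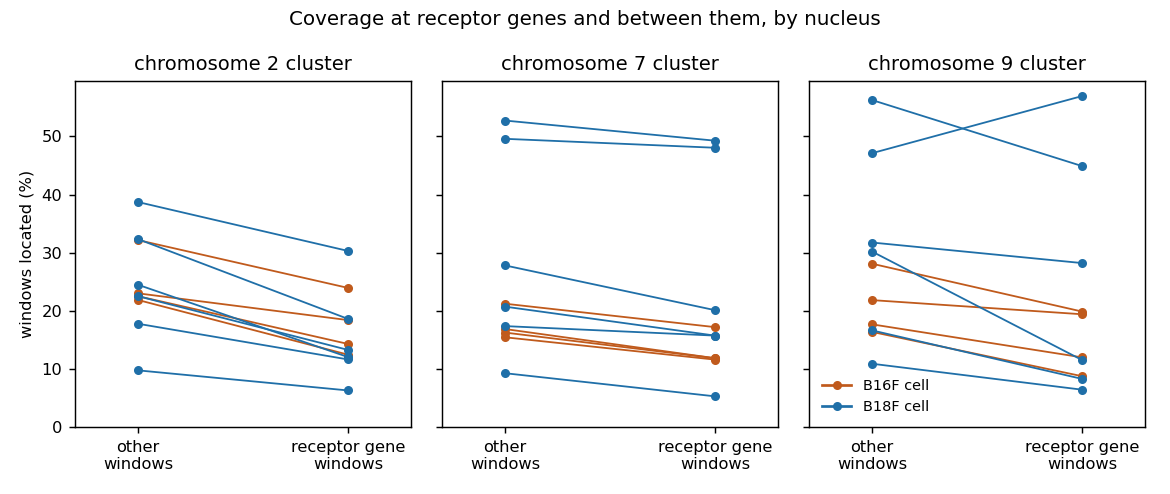
Windows located (percent) among the other windows and among the receptor gene windows of each cluster, with 1 line per cell coloured by batch. Lines fall from left to right in all 10 cells on chromosomes 2 and 7 and in 9 of 10 on chromosome 9, where Cell27 rises from 47.1% to 56.9%.

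Windows over genes of other kinds were also located less often in part of the comparison regions. In comparison regions with at least 50 windows of each kind, windows of other protein-coding genes were called lower than the remaining windows in 32 of 85 regions (37.6%) and called higher in 0 of 85 (0%), with a median difference of -10.3% and a range from -28.9% to 16.8%. Subtracting the mean ratio of gene windows in the comparison regions from that of receptor windows gave -0.243 ± 0.099 on chromosome 2 and -0.154 ± 0.090 on chromosome 7, each negative in 10 of 10 cells (p = 0.00195 by the exact sign-flip test, adjusted p = 0.00293 over 3 clusters). On chromosome 9 the difference was -0.168 ± 0.239, negative in 9 of 10 cells (p = 0.0566 by the exact sign-flip test). A larger deficit than that of the receptor windows was seen in 0 of 30 regions on chromosome 2, 0 of 19 on chromosome 7 and 1 of 36 on chromosome 9. The denominators differ, since windows of other genes count among a cluster's other windows but not among a region's remaining windows. Inside the clusters, other genes had ratios of 0.75, 0.792 and 0.763 to windows with no gene on chromosomes 2, 7 and 9. Receptor windows had 0.650, 0.786 and 0.718 to all other windows, so the values were nearly equal on chromosome 7. Receptor and other gene windows of the same cluster were not tested against each other. How uniquely reads align in these windows was not analysed here.

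Close neighbours gave a similar picture. Against windows without a receptor gene within 50 kb, receptor windows differed on average by -35.7% in the chromosome 2 cluster, -29.0% on chromosome 7 and -32.0% on chromosome 9 (exact sign-flip p = 0.00195, 0.00195 and 0.00391). The 525 receptor windows of the other autosomes had a ratio of 0.804 ± 0.143 to their neighbours, below 1 in 9 of 10 cells (p = 0.00391 by the exact sign-flip test, adjusted p = 0.00670 over 12 such comparisons). The 171 receptor windows on chromosomes 2, 7 and 9 outside the clusters had 0.691 ± 0.150, below 1 in 10 of 10 (adjusted p = 0.00586). Vomeronasal receptor genes, which encode pheromone sensors in another organ and also lie in duplicated arrays, had 0.798 ± 0.060 over 702 windows, below 1 in 10 of 10 cells (p = 0.00195 by the exact sign-flip test, adjusted p = 0.00586). The deficit was thus measured at receptor genes of both families, inside and outside the large clusters. Genes of other kinds were not compared with neighbours within 50 kb, so it cannot be called particular to receptor genes.

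Windows that held a receptor pseudogene and no intact receptor gene differed between clusters. On chromosome 2 they were located 0.670 ± 0.243 times as often as windows free of receptor sequence (exact sign-flip p = 0.00391, adjusted p = 0.00670). On chromosome 7 that ratio was 1.07 ± 0.16 (exact sign-flip p = 0.217) and on chromosome 9 it was 0.885 ± 0.206 (exact sign-flip p = 0.109). The difference between clusters was not tested. Windows of the other protein-coding genes inside the clusters, set against windows with no gene, had ratios of 0.75 ± 0.27 on chromosome 2 (adjusted p = 0.0352 from an exact sign-flip test), 0.792 ± 0.249 on chromosome 7 (adjusted p = 0.0443, likewise exact) and 0.763 ± 0.496 on chromosome 9 (adjusted p = 0.179, likewise exact).

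Counted over the 20 files, windows with 1 receptor gene were located in 16.3% of cases on chromosome 2, 21% on chromosome 7 and 21.6% on chromosome 9. Windows with 2 or more receptor genes had 14.3% (14 windows), 17.3% (15 windows) and 23.8% (4 windows). The first 2 clusters thus ordered by gene content and the third did not, on few windows. Of the chromosome 2 cluster, 30 of 550 windows (5.45%) were located in no file, as were 26 of 700 on chromosome 7 (3.71%) and 6 of 300 on chromosome 9 (2%), where the median of the comparison regions was 3.09%, 3.57% and 2.67%. The longest such gap on chromosome 2 was 30 kb at chr2:88550001-88580000, and on chromosome 7 it was 50 kb at chr7:105980001-106030000. Of the receptor windows 8.20% were never located on chromosome 2, 3.40% on chromosome 7 and 3.70% on chromosome 9, compared with 3.27%, 3.85% and 1.04% of the other windows. At the other end, 12 windows of the chromosome 2 cluster, 9 on chromosome 7 and 4 on chromosome 9 were located in all 10 cells.

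Single genes spanned this range. On chromosome 2, Olfr1002 and Olfr1154 each lay in a window located in 10 of 20 files (50%), while the window of Olfr1048 was located in 0 of 20. Taken over cells, since the 2 files of a cell are not independent, 0 of 10 cells allows a share of up to 30% of cells for a gene chosen beforehand. Olfr1048 was picked as the least located gene, so that limit does not hold for it. The first gene, Olfr987, was located in 2 files, the middle one, Olfr1140, in 1, and the last, Olfr1274, in 5. On chromosome 7, Olfr549 was located in 9 files and Olfr577 in 0, while Olfr543, Olfr656 and Olfr519, the first, middle and last genes, were each located in 3. On chromosome 9, Olfr250 was located in 9 files and Olfr26 in 0, with Olfr160, Olfr930 and Olfr986 at 4, 5 and 4. The median receptor gene was located in 15% of its windows and files on chromosome 2 and in 20% on chromosomes 7 and 9, and 15, 7 and 2 receptor genes were located in no file.

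The families embedded in the chromosome 7 cluster had medians above that value. The 5 beta-globin genes had between 25% and 35% of their windows and files located, with a median of 32.5%. Hbb-bt and Hbb-bh1 stood at 35%, Hbb-bh2 at 32.5%, and Hbb-bs and the embryonic gene Hbb-y at 25%. The 13 Trim genes had a median of 28.7% and a wide range, from 5% at Trim12a to 45% at Trim34a. Trim12c (11.7%) and Trim30b (10%) were also low, whereas Trim5 (36.7%), Trim30d (33.8%) and Trim21 (32.5%) were high. These genes are longer than receptor genes and several span 2 to 7 windows, and no test was made on them. Both families are part of the 71 other protein-coding genes of the cluster. The 200 windows counted for those 71 genes were located at 22.4%, against 26.6% for windows with no gene.

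**Figure D3:**
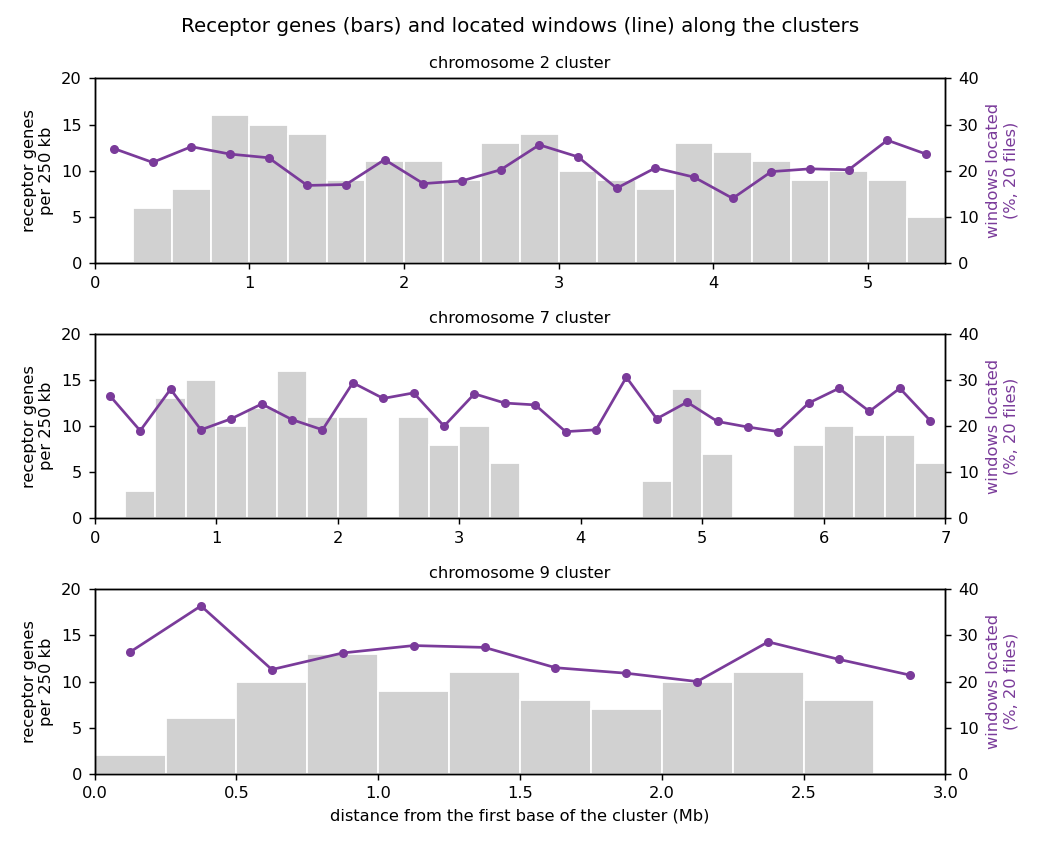
Number of receptor genes (bars, left axis) and percentage of windows located over the 20 files (line, right axis) in blocks of 250 kb along each cluster, by distance from its first base in Mb. The line runs between 14% and 26.6% on chromosome 2, 18.8% and 30.6% on chromosome 7, and 20% and 36.4% on chromosome 9, with no steady rise or fall from one end to the other.

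Along the clusters, the block located least often on chromosome 2 began 4 Mb from the start of the cluster and held 12 receptor genes (14% of windows located), and the block located most often began at 5 Mb and held 9 (26.6%). On chromosome 7 the lowest value (18.8%) was shared by the blocks at 3.75 and 5.5 Mb and the highest (30.6%) was at 4.25 Mb, and all 3 blocks held 0 receptor genes. On chromosome 9 the highest block, at 0.25 Mb, had 36.4% with 6 receptor genes and the lowest, at 2 Mb, 20% with 10. Spearman correlations between receptor genes and percentage located were -0.19 over 22 blocks, 0.24 over 28 and 0.18 over 12, and blocks of a cluster share their slices. At this block size the number of receptor genes and the coverage did not order alike.

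Receptor clusters were spread along the cutting axis about as widely as other regions of their size. Spread is the mean axis distance over all pairs of windows of a region within a file, in the files' own axis unit, in which neighbouring slice positions are 0.2 apart. The chromosome 2 cluster had a spread of 0.630 ± 0.336 axis units (SD, n = 10), from 0.238 in Cell28 through a median of 0.622 to 1.41 in Cell17. The chromosome 7 cluster had 0.596 ± 0.318, from 0.175 in Cell26 through a median of 0.502 to 1.22 in Cell17. The chromosome 9 cluster had 0.550 ± 0.309, from 0.0910 in Cell39 through a median of 0.617 to 1.05 in Cell17. Cell17 was cut into the most slices and was highest for every cluster.

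Relative to the comparison regions, the spread was 1.01 ± 0.20 for the chromosome 2 cluster (exact sign-flip p = 0.859, adjusted p = 0.947), 0.953 ± 0.215 for chromosome 7 (exact sign-flip p = 0.523, adjusted p = 0.910) and 0.940 ± 0.298 for chromosome 9 (exact sign-flip p = 0.537, adjusted p = 0.910). None of the 3 was called, where regions of the same kind were called in 16.1% of cases on chromosome 2, 5% on chromosome 7 and 5% on chromosome 9. The ratio was below 1 in 5, 4 and 6 of 10 cells. Its range was from 0.630 to 1.31 on chromosome 2, 0.543 to 1.29 on chromosome 7 and 0.454 to 1.45 on chromosome 9. No contraction shared by the cells was detected.

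In single nuclei, 5 of 30 values of the spread lay outside the range of the comparison regions, 2 of 10 on chromosome 2, 3 of 10 on chromosome 7 and 0 of 10 on chromosome 9. An average region would do so in 6.45%, 10% and 5% of cells, and the counts were not tested. The chromosome 2 cluster was more spread than all 30 comparison regions in Cell17 (1.41 axis units against a mean of 1.08) and in Cell18 (0.883 against 0.722). In Cell18 the cluster value came from file 1 alone, since file 0 located 8 windows there and at least 10 were required. Comparison regions could draw on both files, so that value is not fully alike. The chromosome 7 cluster was narrower than all 19 comparison regions in Cell17 (1.22 against 1.35), Cell26 (0.175 against 0.323) and Cell38 (0.456 against 0.606). The Cell38 value weights file 0, with 41 windows, and file 1, with 196, equally. By separation class up to 3 Mb, its ratios to comparison regions were nearer 1, from 0.924 to 0.982. In Cell17 the clusters of chromosomes 2 and 7 thus lay at opposite ends of their comparison regions. The chromosome 9 cluster was narrowest relative to its comparison regions in Cell27 (0.181 against 0.400), where 83.2% of its located windows fell at a single slice position that held 41.9% of all autosomal windows.

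Windows near each other along the chromosome, 10 to 100 kb apart, were closer on the axis than windows over 2 and up to 3 Mb apart in 10 of 10 cells in the comparison regions of each chromosome. In the clusters this held in 6 cells on chromosome 2, 9 on chromosome 7 and 8 on chromosome 9. A cell's comparison value is taken over many regions, and its cluster value over a single region. The counts are therefore not alike, and single comparison regions were not counted. Window pairs 10 to 100 kb apart were 0.947 ± 0.103 times as distant as pairs over 2 and up to 3 Mb apart in the chromosome 2 cluster, 0.895 ± 0.124 times on chromosome 7 and 0.685 ± 0.312 times on chromosome 9. In the comparison regions these values were 0.837 ± 0.098, 0.841 ± 0.118 and 0.799 ± 0.138. Over single separation classes, cluster distance relative to that of comparison regions ran from 0.955 to 1.08 on chromosome 2 and from 0.993 to 1.07 on chromosome 7. On chromosome 9 it ran from 0.968 ± 0.342 at 10 to 100 kb to 1.18 ± 0.16 at over 2 and up to 3 Mb, where 8 of 10 cells lay above 1. The spread ratio of that cluster, 0.940, was below the lowest class value. In Cell39 the comparison value was 0.178 for the spread and 0.0714 to 0.118 over the classes. Files, regions or pairs are thus weighted differently in the 2 measures, and their ratios are not alike. The class values are descriptions over 15 cluster and separation classes, with no test.

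Cluster windows of the 2 files of a cell lay about as far from each other as those of other regions. The measure also holds the spread within a cluster, and its ratios were close to those of the spread. The gap between the mean positions of the 2 files was smaller, at 0.165 ± 0.185 axis units on chromosome 2, 0.120 ± 0.128 on chromosome 7 and 0.136 ± 0.150 on chromosome 9. That gap was not set against comparison regions. The labels do not say what a file number stands for. The mean distance from a window of a cluster in file 0 to one in file 1, relative to comparison regions, was 1.01 ± 0.22 on chromosome 2 (n = 9, exact sign-flip p = 0.879), 0.949 ± 0.216 on chromosome 7 (exact sign-flip p = 0.477) and 0.954 ± 0.291 on chromosome 9 (exact sign-flip p = 0.650). Cell18 gave no chromosome 2 value, since its file 0 located 8 windows there and at least 10 were required. None of the 3 was called, where regions were called in 12.9% of cases on chromosome 2, 10% on chromosome 7 and 7.5% on chromosome 9. Adjusted over all 91 regions, the p-values were 0.983, 0.872 and 0.951.

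How many cluster windows both files listed varied more. Over the 10 cells, 168 windows of the chromosome 2 cluster were in both files of a cell, where independent files would share 227. On chromosome 7 the count was 592 where independent files would share 475, and on chromosome 9 it was 309 where 246 would be shared. The low count on chromosome 2 included Cell17, with 14 shared windows where 44.7 would be shared, and without that cell the count was 154 where 183 would be shared. On chromosome 7, Cell26 alone gave 251 shared windows, and without it the count was 341 where 289 would be shared. On chromosome 9, Cell27 gave 96, and without it the count was 213 where 170.2 would be shared. Of the shared windows, 29.8% had the same position in both files on chromosome 2, 54.7% on chromosome 7 (46.9% without Cell26) and 54.7% on chromosome 9 (48.8% without Cell27). These counts were not tested. No such counts were made for comparison regions, so they cannot be called particular to the clusters.

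In position, the clusters had no fixed place along the axis. Ranked among the windows of the cell by how far they lay from the middle of its axis, the clusters stood at the 48.8 ± 4.4 percentile on chromosome 2, 50.2 ± 7.8 on chromosome 7 and 51.7 ± 6.5 on chromosome 9 (SD, n = 10). Their mean position ran from 26.2% to 85.9% of the sampled axis on chromosome 2, from 12.5% to 91.3% on chromosome 7 and from 16.3% to 96.6% on chromosome 9, with medians of 46.9%, 48.1% and 45.7%. Cell39 had the highest value for each cluster and Cell26 the lowest. In Cell39 a single slice position held 59.7% of all autosomal windows, and the chromosome 9 cluster was found at 2 of its 11 positions. The direction of the axis is arbitrary, so high and low carry no meaning across cells.

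The means of the 3 clusters spanned from 2.88% (Cell20) to 17.5% (Cell27) of the sampled axis, with a median of 9.05%. Sets of 3 comparison regions, 1 from each chromosome, had a median span per cell from 6.33% to 23.3%, and the clusters spanned less than that median in 7 of 10 cells. This was not tested. The order along the axis was not shared between cells: the chromosome 9 cluster was the middle one in 5 cells, chromosome 7 in 4 and chromosome 2 in 1. In Cell17, 17.8% of the located windows of the chromosome 2 cluster fell at the outermost of 23 positions, which held 1.67% of all autosomal windows. Over the 10 cells, the fullest position of a cluster held 32.6% ± 16.2 of its windows on chromosome 2, 30.9% ± 15 on chromosome 7 and 41.3% ± 22.5 on chromosome 9.

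**Figure D4:**
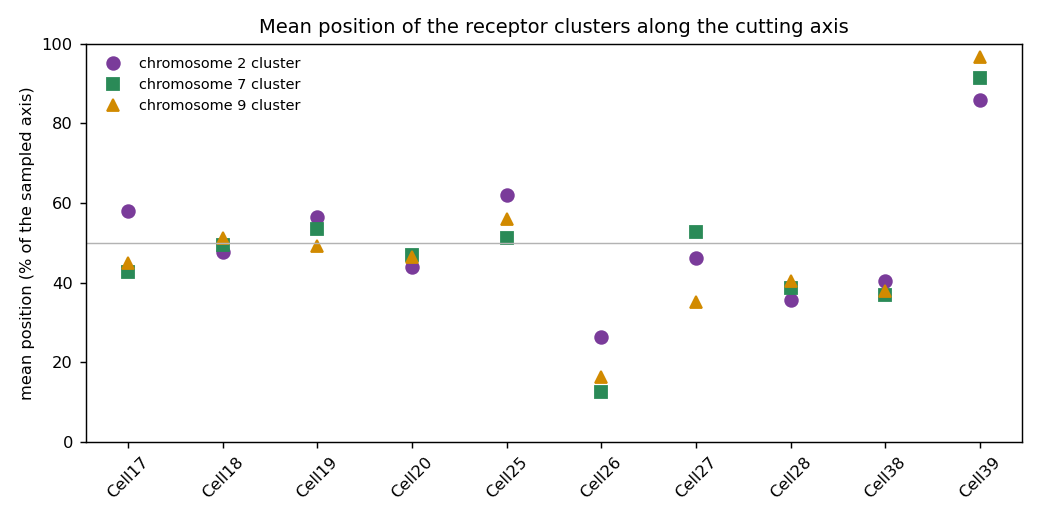
Mean position of each cluster in each cell, as a percentage of the sampled axis (0 and 100 are its lowest and highest positions, and the line marks the middle). The 3 symbols of a cell lie within 17.5% of the axis of each other, while cells differ from 12.5% (chromosome 7 cluster, Cell26) to 96.6% (chromosome 9 cluster, Cell39).

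Receptor clusters of different chromosomes were compared by the mean axis distance between their windows in the same file. This mean also holds the spread within each cluster, so clusters with equal mean positions still have a distance. For chromosomes 2 and 7 it was 0.660 ± 0.354 axis units (SD, n = 10, lowest 0.284, median 0.626, highest 1.46). For chromosomes 2 and 9 it was 0.631 ± 0.339 (lowest 0.301, median 0.652, highest 1.37). For chromosomes 7 and 9 it was 0.604 ± 0.306 (lowest 0.188, median 0.592, highest 1.14). In Cell20 the mean positions of the 3 clusters lay within 0.0634 axis units, while these distances were 0.761, 0.701 and 0.732. Relative to all pairs of comparison regions of the same chromosomes, the first pair had a ratio of 0.958 ± 0.121 (exact sign-flip p = 0.311, adjusted p = 0.726 over 2660 pairs) and the second 0.936 ± 0.149 (exact sign-flip p = 0.205, adjusted p = 0.680). The ratios were below 1 in 6 and in 7 of 10 cells. Pairs of regions of these chromosomes were called in 9.52% of cases for chromosomes 2 and 7 and in 8.95% for chromosomes 2 and 9.

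The clusters of chromosomes 7 and 9 had the lowest ratio, 0.902 ± 0.126, with values below 1 in 7 of 10 cells and an exact sign-flip p = 0.0156. The values ran from 0.596 in Cell26 through a median of 0.919 to 1.04 in Cell20, the highest of 3 cells above 1. In Cell26 the spread ratios were 0.543 for the chromosome 7 cluster and 0.837 for the chromosome 9 cluster. The part of spread in the distance was not tested. Adjusted over all 2660 pairs of regions the p was 0.547, and over the 16 designed comparisons it was 0.0625. Of pairs of regions of chromosomes 7 and 9, 7.75% were called, and 23 of 799 other pairs had a lower ratio. The smallest adjusted p of any pair was 0.487, so no pair of regions passed the adjusted threshold.

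The ratio was lower in batch B18F, by a difference that was not adjusted over the 16 results. Its 6 cells had a ratio of 0.842 (exact sign-flip p = 0.0312, the smallest 6 cells can give) and the 4 cells of B16F had 0.992, a difference with an exact permutation p = 0.0333 over 210 splits. The batches overlapped, since Cell17 of B16F had 0.922 and Cell28 of B18F had 0.938. Without Cell26, the difference from comparison regions moved from -9.81% to -6.41% with an exact sign-flip p = 0.0312. With file 1 alone it was -7.67% (exact sign-flip p = 0.0820) and with 1 window per 100 kb it was -6.12% (exact sign-flip p = 0.0977). The clusters of chromosomes 2 and 7 differed between the batches in the same direction, with 1.05 in B16F and 0.896 in B18F (exact permutation p = 0.0381). Cells of B16F were cut into 12 to 23 slices and those of B18F into 7 to 15, and the part of slice number in these differences was not tested.

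**Figure D5:**
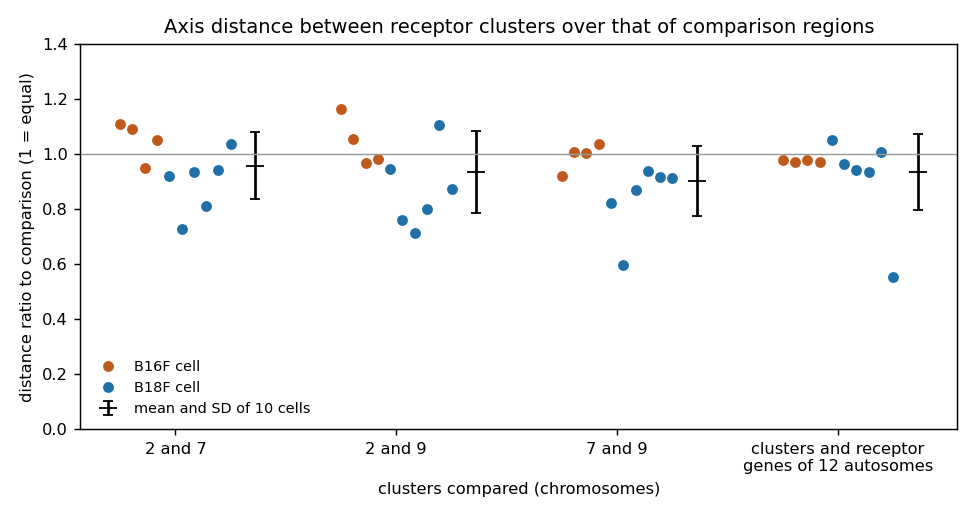
Axis distance between clusters of 2 chromosomes, and between the clusters and receptor genes of 12 other autosomes, divided by the distance of comparison regions or windows, with 1 point per cell coloured by batch and the mean and SD of 10 cells at the right of each group. Values centre between 0.902 and 0.958, with Cell26 lowest for chromosomes 7 and 9 (0.596) and Cell39 lowest for the other autosomes (0.555).

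Receptor genes on the other chromosomes lay nearly as far from the clusters as other windows there. The distance from cluster windows to receptor windows of 12 other autosomes (those with at least 5 receptor windows), over that to all windows of the same autosomes, was 0.936 ± 0.138 (SD, n = 10; lowest 0.555 in Cell39, median 0.972, highest 1.05 in Cell25), below 1 in 8 of 10 cells (p = 0.0547 by the exact sign-flip test, adjusted p = 0.175 over 16 comparisons). Without Cell39 the difference moved from -6.44% to -2.20% (exact sign-flip p = 0.109). Without Cell25 it was -7.72% with an exact sign-flip p = 0.00781, and without Cell38 it was -7.24% with an exact sign-flip p = 0.0469. With windows at the outermost positions left out it was -5.29% (exact sign-flip p = 0.00586), and for the chromosome 7 cluster alone it was -6.18% (exact sign-flip p = 0.0391). The call thus turned on single cells and settings, and most cells lay within a few percent of 1.

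Smaller receptor regions on the same chromosomes gave no common direction either. Of the comparison regions, 7 hold at least 5 receptor genes, from 8 to 37. Their coverage differed from that of the remaining regions by -5.12% to 16.7%, with exact sign-flip p-values from 0.0840 to 0.926, and their spread by -8.07% to 10.7%, with exact sign-flip p-values from 0.104 to 0.949. On chromosome 2 the region with 37 receptor genes, chr2:107000001-112500000, was within 1% of the mean of the other regions in both measures (coverage 0.639%, spread -0.975%).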

How the data were processed

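Serial slices of single nuclei were whole-genome amplified and sequenced, per the labels' protocols. Trim Galore 0.6.4, Bowtie2 2.3.5, Picard and mm10 are named in the submitters' processing notes. How reads became positions is not given in the sources used here. The authors' deposited files list 10 kb windows with 1 position each on an axis whose unit, per the file headers, is unnamed. They hold no read counts, so the depth behind a window is unknown and the number of located windows stands in for it. The 5 control samples have no file of positions and were not used.

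Here, each measure of a cluster was divided, cell by cell, by its mean over regions of equal length on the same chromosome. Regions were tiled from the cluster over the stretch from 3 Mb to the last located window. Mean distances over window pairs needed at least 10 windows per region and file. Ratios were tested against 1 with a two-sided exact sign-flip permutation test over cells (1024 sign patterns), adjusted by Benjamini-Hochberg over 91 regions, 2660 pairs or 16 comparisons. The labels do not name the culture of a cell, so the tests speak of these 10 cells and the spread among them, which may be technical. Percentages called are the shares of all regions or pairs of a chromosome with an unadjusted p under 0.05. Base positions are 1-based on mm10, and genes and promoters come from RefSeq (GRCm38.p6), matched by symbol. Regions, gene lists and tests were chosen with earlier results of these data known. Named genes were the first, middle, last, most located and fewest located receptor gene of each cluster (ties by start), with the Hbb and Trim genes. Olfr1154, tied with the most located gene of its cluster, was named after its value was seen because it has a promoter entry. The other settings tried changed the comparison regions, cluster borders, windows, files, scale, measure or cells. The comparisons of ranges, spans of 3 regions and shared windows without a cell were added after seeing the data. Scripts ran in Python 3.11.15 with numpy 2.4.6, scipy 1.17.1 and pandas 2.3.3 and were tested on simulated data.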

Additional observations from a re-analysis of the deposited data

Results flagged for a closer look

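In 3 of the 16 results, the gap between the highest or lowest cell and the next took more of the whole range than Dixon's 95% limit for 10 values. Chance marks about 1 in 20 single groups by this limit, but the 16 results share cells and windows, so that rate is no expectation for their number. The coverage ratio of the chromosome 7 cluster was 1.72 in Cell26, with the next highest cell at 1.19. The distance ratio of the clusters on chromosomes 7 and 9 was 0.596 in the same cell, with the next lowest at 0.821. Cell26 had the fewest slices (7). The distance ratio to receptor genes of other autosomes was 0.555 in Cell39, with the next lowest at 0.936. Cell39 had the fewest located windows (56975).

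The batches differed in 2 results by an exact permutation test over 210 splits, before any adjustment over the 16 results. The distance ratio of the clusters on chromosomes 2 and 7 was 0.154 higher in B16F than in B18F (p = 0.0381), and that of the clusters on chromosomes 7 and 9 was 0.150 higher (p = 0.0333).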

How the results depend on the processing

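The 16 results were recomputed under 340 alternatives, of which 291 kept the direction and the side of the threshold, 37 changed direction, 7 lost a call and 5 gained one. No result called over all cells changed direction. All values are percent differences from the comparison. Coverage of the chromosome 2 cluster was -16.4 on slice positions alone (a call), 0.495 in file 1 and 4.79 with either file counted once. For the chromosome 7 cluster it was 0.433 when cut to its receptor genes, 1.95 with the median over regions, 5.80 in file 1, 0.915 with either file counted once and 6.88 in B18F. Spread on chromosome 2 was -0.430 when cut to the genes, -0.758 on the log2 scale, -1.66 in file 0, -0.196 in file 1, -2.46 with 1 window per 100 kb and -5.62 in B18F. In B16F it was 2.82 on chromosome 7 and 12 on chromosome 9. Distance between files on chromosome 2 was -0.0996 when cut, -1.17 on the log2 scale, -2.91 without windows listed in both files and -6.76 in B18F. In B16F it was 3.18 on chromosome 7 and 12.6 on chromosome 9, where it was 1.56 without the outermost positions. Between clusters of chromosomes 2 and 7 the difference was 0.0136 without the outermost positions and 5.04 in B16F, and for chromosomes 2 and 9 it was 4.13 in B16F. For chromosomes 7 and 9 the call was lost in file 1 (-7.67), with 1 window per 100 kb (-6.12) and in B16F (-0.798). Receptor windows lost their call in B16F (-31.2, -25.1 and -29.7 on chromosomes 2, 7 and 9), where 4 cells cannot reach it, and in B18F on chromosome 9 (-27.1). The distance to other receptor genes gained a call without the outermost positions (-5.29) and for the chromosome 7 cluster alone (-6.18). With each cell left out in turn, values ran from -9.50 to 2.81 for chromosome 7 coverage, -0.346 to 10.8 for chromosome 9 coverage, -2.19 to 5.38 for chromosome 2 spread, -3.68 to 5.84 and -9.24 to 0.794 for the distance between files on chromosomes 2 and 9, and -7.72 to -2.20 for the distance to other receptor genes. Apart from the small batches, the causes were not tested. The share of distant window pairs and the neighbours within 50 kb were alternatives chosen after seeing the data. Few cells, a single axis and unknown read depth limit every value. Cells of the 2 batches could not be paired with each other, because the labels give them no shared replicate numbers. The ratios themselves compare regions or windows within the same cell.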
